A study of Mus musculus with 6 samples.

Results

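Immediate early genes are switched on within minutes of a stimulus, without new protein synthesis, by kinases that act on transcription factors already bound at their promoters. Their transcripts are short-lived, so their level in a tissue follows recent signalling. Many encode transcription factors, among them the Fos and Jun proteins, which pair to form AP-1, and in liver they are known for a rapid rise after partial hepatectomy. The list taken here holds 10 such genes, chosen by name and not by a cutoff on their values: Fos, Fosb, Jun, Junb, Egr1, Atf3, Ier2, Btg2, Klf6 and Zfp36. The choice was made with earlier results of these data known. All 10 were found by symbol among the 20914 genes of the count table, and all 10 passed the filter on low counts that left 13725 genes for testing.

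The libraries were made from mouse liver RNA, with 3 labelled DOX and 3 labelled PBS. DOX is a usual short form of doxycycline and PBS of phosphate-buffered saline, but the labels spell out neither, nor S10D, which stands in every sample name. Both groups carry the genotype label BucheKI/KI-Hep, the term CKI-Alb-Cre in their names and the same BDL treatment label. Alb-Cre usually means Cre recombinase under the albumin promoter, which is active in hepatocytes, and BDL usually means bile duct ligation. Control livers without BDL and without the knock-in were not analysed here, so the levels below are those of livers that all carry both. Age and sex were not used. Nothing in the labels says whether each library is a separate animal, so each p-value speaks only of variation among the 6 libraries, part of which may be technical.

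Total gene counts were 33711852 to 41102844 in DOX and 32826493 to 40583148 in PBS libraries. Bche, the gene of butyrylcholinesterase, averaged 670.6 ± 268.9 CPM in DOX and 210.6 ± 29.7 CPM in PBS (SD, n = 3 each; CPM are read counts scaled to library size by the TMM method), with no overlap between groups. Over all tested genes, 4 differed between DOX and PBS at an adjusted p of 0.05, which is 0.0291% (edgeR quasi-likelihood test). Of these 4, 1 was lower in DOX, or 0.00729% of all tested genes. Bche was not among the 4 (log2 fold change 1.67, edgeR adjusted p = 0.106), while DESeq2 called it (adjusted p = 2.9e-08).

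Promoter sequences are shown for 4 members, since the CRE (cyclic AMP response element), bound by CREB and ATF proteins, is a textbook element of these genes. Fos and Atf3 are shown because their groups did not overlap, Junb because it tracked Atf3 most closely, and Btg2 because it had the highest median correlation with the other members. The sequences are those of RefSeq on GRCm38.p6 and cover the 250 bases before the RefSeq start of each gene, 5′ to 3′ on the gene's strand. For Atf3 that start lies 7 bases from the start of 1 GENCODE transcript and 34706 bases inside the longest one, whose own upstream bases are not shown. For Fos, Junb and Btg2 it lies 0, 30 and 35 bases from the GENCODE start. Capitals mark the CRE core TGACG or its complement CGTCA. Of the 10 members, 8 were matched by symbol among the RefSeq promoters, all but Egr1 and Ier2. The windows are chr12:85473640-85473889 (plus strand) for Fos, chr1:191183334-191183583 (minus) for Atf3, chr8:84978749-84978998 (minus) for Junb and chr1:134079156-134079405 (minus) for Btg2.
Fos: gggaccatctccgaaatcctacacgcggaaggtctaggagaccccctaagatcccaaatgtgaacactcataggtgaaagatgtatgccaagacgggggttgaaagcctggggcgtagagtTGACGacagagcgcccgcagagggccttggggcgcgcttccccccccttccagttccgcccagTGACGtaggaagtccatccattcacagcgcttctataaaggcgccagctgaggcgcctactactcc
Atf3: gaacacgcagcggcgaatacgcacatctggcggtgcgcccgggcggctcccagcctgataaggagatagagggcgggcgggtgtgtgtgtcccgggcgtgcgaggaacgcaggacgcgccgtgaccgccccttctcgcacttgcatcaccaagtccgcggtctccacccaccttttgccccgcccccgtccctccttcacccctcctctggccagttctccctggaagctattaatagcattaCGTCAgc
Junb: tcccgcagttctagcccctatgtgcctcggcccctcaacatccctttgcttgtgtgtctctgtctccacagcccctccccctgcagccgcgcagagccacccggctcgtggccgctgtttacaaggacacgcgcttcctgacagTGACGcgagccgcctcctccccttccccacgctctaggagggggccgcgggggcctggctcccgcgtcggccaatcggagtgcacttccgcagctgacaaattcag
Btg2: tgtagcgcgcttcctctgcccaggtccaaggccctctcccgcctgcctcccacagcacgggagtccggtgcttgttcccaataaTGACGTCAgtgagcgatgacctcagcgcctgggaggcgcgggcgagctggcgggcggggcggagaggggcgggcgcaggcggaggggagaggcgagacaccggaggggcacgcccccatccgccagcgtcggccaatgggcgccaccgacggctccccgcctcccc
The CRE core TGACG, searched on both strands, was found in 5 of the 8 member promoters (Fos, Fosb, Junb, Atf3 and Btg2), and in 17.8% of all 32851 RefSeq promoter windows of that length. In Fos it began at positions -129 and -66 from the start site. The full palindrome TGACGTCA, which contains this core on both strands, was found in Btg2 at position -166, and in 1.55% of all windows. TATAAA, the core of the TATA box, was found in Fos at position -33 and in 12.4% of all windows. The CArG box, the letters bound by serum response factor, was found in 1 of the 8, Zfp36, at position -58, and in 1.47% of all windows. Other motifs were searched too. The GC box GGGCGG was found in 7 of the 8, and in 32.7% of all windows. The CRE-like letters TGACNTCA (N for any base) were found in 3, Btg2, Jun and Klf6, and in 7.49% of all windows. CCAAT was found in 4, and in 33.8% of all windows. The STAT site TTCCNGGAA was found in 0, and in 0.913% of all windows. These matches describe letters and do not show binding. Bases outside the 250-base windows, and the promoters of Egr1 and Ier2, were not searched, so a site there would be missed.

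Fos was the member with the clearest difference, at 52.4% of its PBS level in DOX livers. Its partners in AP-1 were lower in DOX on average too, but their groups overlapped. None of the 10 members passed the test over all genes, while all 10 fitted log2 fold changes were negative, with a median of -0.36. A negative value was also found for 53% of all tested genes, whose median was -0.015. At an unadjusted p of 0.05, 3 members (Fos, Atf3 and Btg2) were lower, where 4.87% of all tested genes were. The members were counted in the same libraries and are not independent of each other.

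Fos encodes c-Fos, an AP-1 subunit that binds DNA only when paired with a Jun protein (chromosome 12, 85473890 to 85477273 in GRCm38, protein coding, as are the other 9). It stood at 5.18, 4.49 and 3.75 CPM in DOX replicates 1 to 3, against 10.02, 8.56 and 7.04 CPM in PBS replicates 1 to 3. Every DOX library lay below every PBS library, from 139 to 194 counts against 263 to 434. The log2 fold change was -0.93 (SE 0.19, 95% interval -1.37 to -0.49), which did not pass over all genes (edgeR adjusted p = 0.216) although its p ranked 69th of the 13725. An exact permutation test (two-sided) gave p = 0.1, and 3 against 3 libraries allow none smaller. DESeq2 did call Fos (adjusted p = 0.0044), where it called 0.324% of 14828 genes lower in DOX. Leaving out 1 library gave log2 fold changes of -1.05 to -0.80 and adjusted p of 0.194 to 0.587.

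Fosb encodes a close relative of c-Fos (chromosome 7, 19302696 to 19310051) and was the rarest member. It had 24, 28 and 9 counts in DOX and 53, 78 and 21 counts in PBS, or 0.57 ± 0.298 and 1.38 ± 0.91 CPM (SD, n = 3 each). Its log2 fold change of -1.27 was the largest in size but the least precise (SE 0.61, adjusted p = 0.523), and DOX replicates 1 and 2 lay above PBS replicate 3. Without PBS replicate 2 it was -0.66.

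Jun encodes c-Jun, the partner that can also pair with itself (chromosome 4, 95049034 to 95052222). It stood at 82.3, 51.3 and 60.5 CPM in DOX, against 108.2, 60.3 and 85.6 CPM in PBS. The highest library was a PBS one and the lowest a DOX one, with overlap between (log2 fold change -0.39, SE 0.23, adjusted p = 0.607). Without DOX replicate 1 the log2 fold change was -0.59 and without PBS replicate 1 it was -0.17. Junb encodes JunB, a weaker activator than c-Jun on many targets (chromosome 8, 84974484 to 84978718). It stood at 61.6, 48.8 and 28.9 CPM in DOX, against 74.3, 56.9 and 64.4 CPM in PBS (log2 fold change -0.49, SE 0.24, adjusted p = 0.541). DOX replicate 3 was the low library, and without it the log2 fold change was -0.24. The ratio of Fos to Jun in FPKM, which divides by gene length, was 0.107 ± 0.0219 in DOX and 0.16 ± 0.0482 in PBS, with overlap (exact two-sided permutation p = 0.2).

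Atf3 encodes a stress-induced member of the same leucine zipper class, which often acts as a repressor (chromosome 1, 191170296 to 191218039). It stood at 15.4, 14.1 and 10.9 CPM in DOX, against 17.0, 16.4 and 17.3 CPM in PBS. The groups did not overlap, and the PBS libraries lay close together, while DOX replicate 3 was lowest. The log2 fold change was -0.33 (SE 0.14, 95% interval -0.65 to -0.011, adjusted p = 0.497), and -0.19 without DOX replicate 3. Fos and Atf3 were the 2 members whose groups did not overlap, where 9.02% of all tested genes had all DOX libraries below all PBS libraries.

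Btg2 encodes an antiproliferative protein that promotes mRNA deadenylation and is a p53 target (chromosome 1, 134075170 to 134079120). It stood at 76.2, 60.1 and 40.1 CPM in DOX, against 90.0, 118.3 and 63.3 CPM in PBS. PBS replicate 3 lay below DOX replicate 1, so the groups overlapped (log2 fold change -0.62, SE 0.27, adjusted p = 0.5). It was -0.41 without DOX replicate 3 and -0.38 without PBS replicate 2. Zfp36 encodes tristetraprolin, which binds AU-rich elements and speeds the decay of mRNAs such as that of TNF (chromosome 7, 28376784 to 28380253). It was the most even member, at 84.8 ± 5.83 CPM in DOX and 89.2 ± 7.95 CPM in PBS (SD, n = 3 each), with a log2 fold change of -0.07 and a 95% interval of -0.31 to 0.16.

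Egr1, a zinc finger activator (chromosome 18, 34859823 to 34864984), stood at 56.6, 44.5 and 31.6 CPM in DOX, against 49.0, 58.6 and 38.5 CPM in PBS. The groups overlapped widely (log2 fold change -0.14, 95% interval -0.64 to 0.36), and the sign changed without DOX replicate 3 (0.057) or PBS replicate 2 (0.015). Klf6, a zinc finger factor of the Krüppel-like family (chromosome 13, 5861482 to 5870394), ranged from 40.4 to 55.7 CPM in DOX and from 47.6 to 60.4 CPM in PBS (log2 fold change -0.16, SE 0.14). Ier2, a nuclear protein named for its immediate early response (chromosome 8, 84661331 to 84662852), ranged from 24.0 to 32.3 CPM in DOX and from 28.9 to 34.6 CPM in PBS (log2 fold change -0.16, SE 0.13). A p that misses the threshold does not show that these genes were equal in both groups.

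**Figure D1:**
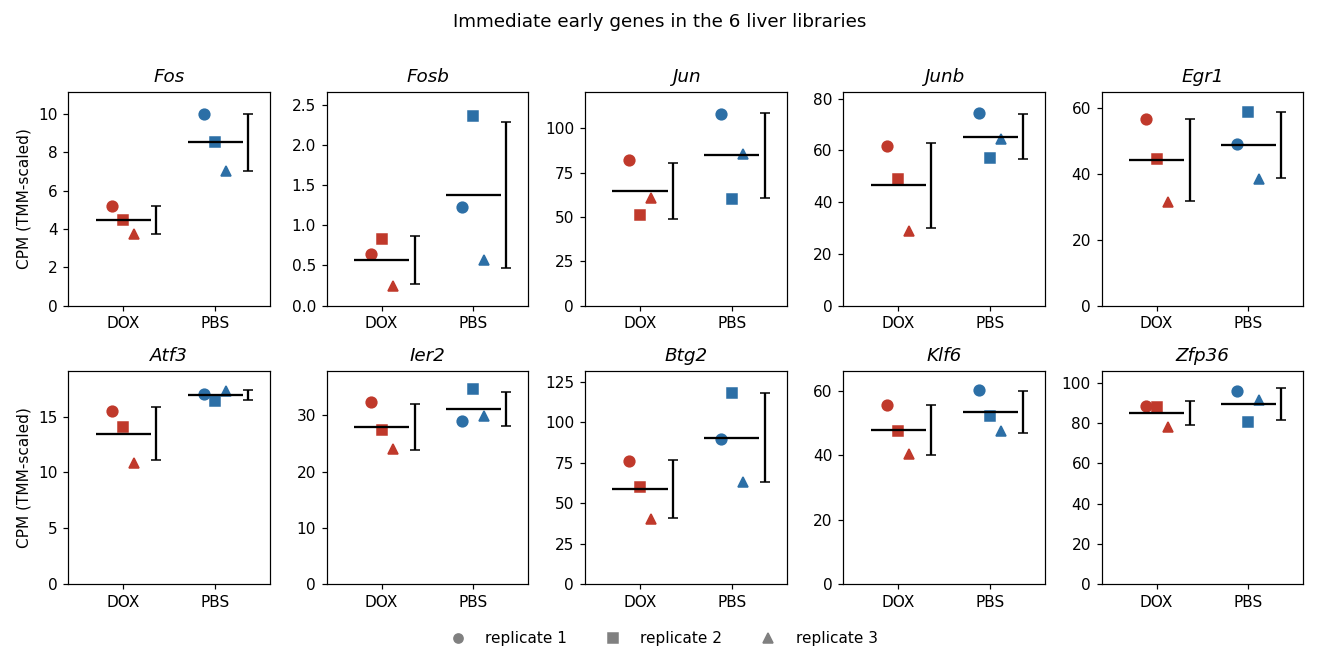
CPM (TMM-scaled) of each member in the 6 libraries, DOX in red and PBS in blue, with replicates by symbol, the group mean as a line and its SD as a bar (n = 3 each), every axis from 0. Fos and Atf3 are the panels where all DOX points lie below all PBS points.

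**Figure D2:**
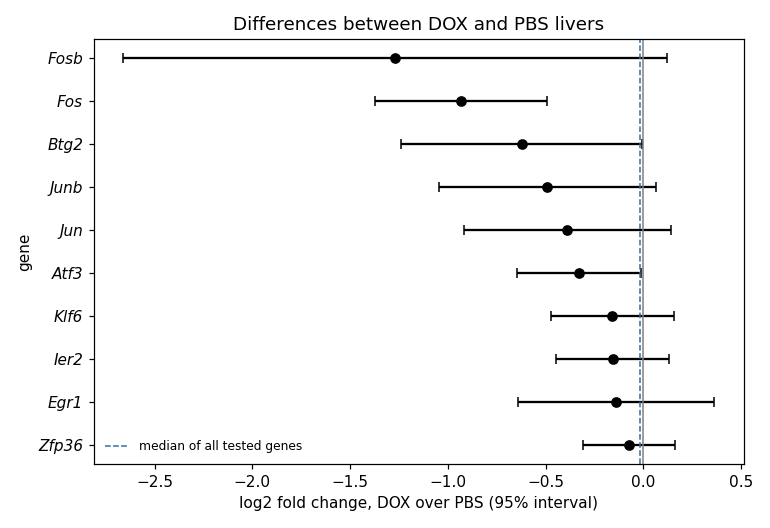
Fitted log2 fold change of DOX over PBS for each member, with its 95% interval from the edgeR fit. All 10 points lie below 0, the intervals of Fos, Btg2 and Atf3 end below 0, and the dashed line marks the median of all tested genes at -0.015.

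Counted per gene length, Zfp36 was the most abundant member and Fosb the rarest in both groups, at 45.3 ± 5.32 and 0.147 ± 0.0822 FPKM in DOX and 52.2 ± 6.26 and 0.378 ± 0.237 FPKM in PBS (SD, n = 3 each). Klf6, Atf3, Fos and Fosb took the last 4 places in that order in both groups, and Atf3, Fos and Fosb were each apart from their neighbours in the order. From Junb down through Jun, Btg2, Ier2 and Egr1 to Klf6, the ranges of neighbours overlapped in DOX. In PBS, Btg2 stood above Jun, and the ranges overlapped from Junb to Ier2 and from Egr1 to Klf6, while Ier2 and Egr1 did not overlap. Fos averaged 2.03 ± 0.388 FPKM in DOX and 4.24 ± 0.766 FPKM in PBS.

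Part of 4 members lies under a gene on the opposite strand, and the use of strand in counting is not given in the sources used here. Prdx2 overlaps 351 bases of Junb, Gm24748 108 bases of Atf3, Junos 689 bases of Jun and Gm44710 1274 bases of Zfp36. Whether reads from these stretches were assigned by strand can therefore not be told here. Prdx2 had 4795 to 5821 counts in DOX and 4708 to 6281 counts in PBS libraries, against 1071 to 2306 and 1881 to 3218 counts of Junb itself. Junos had 38 to 40 counts in DOX and 58 to 83 counts in PBS libraries. Gm24748 and Gm44710 were not found by symbol in the count table.

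Low and high values of the members tended to fall in particular libraries. DOX replicate 3 held the lowest value of 9 members, all but Jun, whose lowest library was DOX replicate 2. PBS replicate 1 held the highest value of 5 members, PBS replicate 2 of 4 and PBS replicate 3 of 1. How often all tested genes had their lowest or highest value in these libraries was not computed. These counts therefore have no background beside them. On average over members, each expressed in SDs from its own mean log2 CPM, the libraries stood at 0.32, -0.39 and -1.46 for DOX replicates 1 to 3 and at 0.85, 0.55 and 0.13 for PBS replicates 1 to 3. DOX replicate 1 thus lay above PBS replicate 3 on this average. DOX replicate 3 was also the deepest library and had the lowest TMM factor, 0.902, against 0.961 to 1.07 in the others, and the part of these in its low values was not tested.

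**Figure D3:**
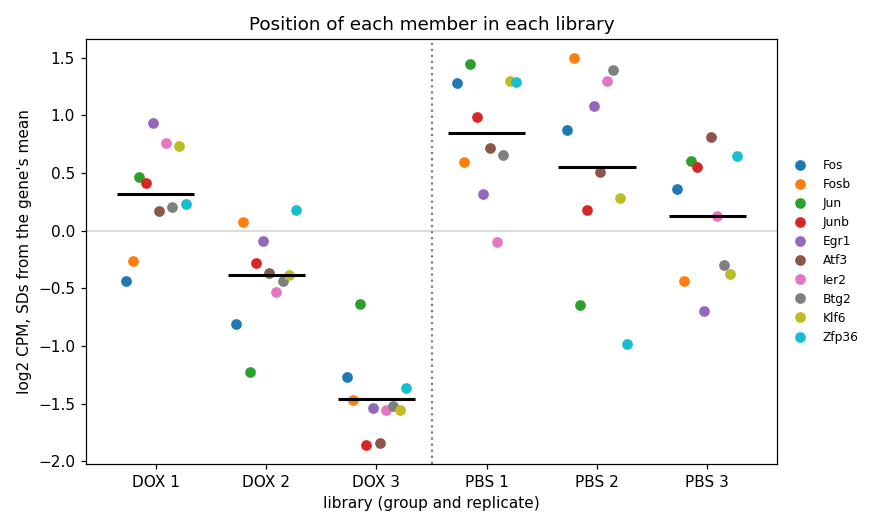
log2 CPM of each member in each library (3 DOX, left, and 3 PBS, right), in SDs from that gene's mean over the 6 libraries, with the mean over the 10 members as a line. The line runs from -1.46 in DOX replicate 3 to 0.85 in PBS replicate 1.

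All 45 pairs of members had a positive Pearson r of log2 CPM over the 6 libraries, with a median of 0.69 (quartiles 0.62 and 0.81). Among all 94180950 pairs of tested genes, 50.1% had a positive r, the median was 0.002, and 8.05% reached the members' median. On deviations from the group means, which remove the difference between DOX and PBS, the median was 0.62 and 41 pairs were positive, and 14.7% of all pairs of tested genes reached that value. The co-variation leaned on DOX replicate 3. Without that library the median r of the 45 pairs was 0.35 and 35 were positive, whereas leaving out any other single library gave medians of 0.70 to 0.81. Pairs share libraries and scaling, and with 6 libraries no pair passed adjustment over the 45 (smallest adjusted p = 0.135), although 11 pairs had an unadjusted exact permutation p under 0.05 for r and 4 for Spearman's rho.

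Over the 6 libraries, the highest Pearson r of Fos was that with Atf3 (r = 0.85, exact permutation p = 0.0125, rho = 0.83, p = 0.0583, adjusted over the 45 pairs 0.135 and 0.188). The permutations take no account of group, so these p-values include the difference between DOX and PBS. Without DOX replicate 3 and PBS replicate 1, the 2 libraries farthest from the median of Fos, the r with Atf3 was 0.83. Both groups keep libraries there, so this value includes that difference as well. Fos with Btg2 had r = 0.83 (exact permutation p = 0.0319, rho = 0.89, p = 0.0333, adjusted 0.144 and 0.188), and 0.73 without the same 2 libraries. Fos with Zfp36 had the lowest r of the 9 relations of Fos, 0.50 (exact permutation p = 0.325, rho = 0.66, p = 0.175, adjusted 0.395 and 0.375), and without those 2 libraries it was -0.55, so the positive value rested on them. Without the same libraries, r of Fos was also as low as 0.081 with Klf6, 0.19 with Egr1 and 0.22 with Jun, against 0.75, 0.54 and 0.62 over all 6, and it was 0.49 with Junb, 0.60 with Fosb and 0.71 with Ier2. Within groups, on deviations from the group means, the order was another one. There Fos had its highest r with Klf6 (0.97), then Egr1 (0.81), Btg2 (0.80), Junb (0.74), Fosb (0.67) and Atf3 (0.61), and lower ones with Ier2 (0.52), Zfp36 (0.50) and Jun (0.44).

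Junb and Atf3 were the closest pair (r = 0.97, exact permutation p = 0.00833, rho = 0.89, p = 0.0333, adjusted 0.135 and 0.188), with 0.96 within groups and 0.85 without DOX replicate 3 and PBS replicate 1. Jun and Zfp36 correlated with each other at r = 0.73 (exact permutation p = 0.118, rho = 0.77, p = 0.103, adjusted 0.221 and 0.289), and 0.98 without DOX replicate 2 and PBS replicate 1. Both had r of only 0.07 to 0.29 with Btg2, Fosb, Egr1 and Ier2, whose 6 pairs among themselves ran from 0.77 to 0.95. These 6 values leaned on DOX replicate 3 and PBS replicate 2, without which they ran from -0.48 (Fosb with Ier2) to 0.64. The 8 pairs of Jun or Zfp36 with these genes ran from -0.13 to 0.72 when the 2 libraries farthest from the median of the first gene were left out, so the 2 sets of values then overlapped. Whether these 2 sets differ was not tested. In PBS replicate 2, Btg2, Fosb, Egr1 and Ier2 had their highest values, while Jun and Zfp36 had their lowest PBS values there.

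**Figure D4:**
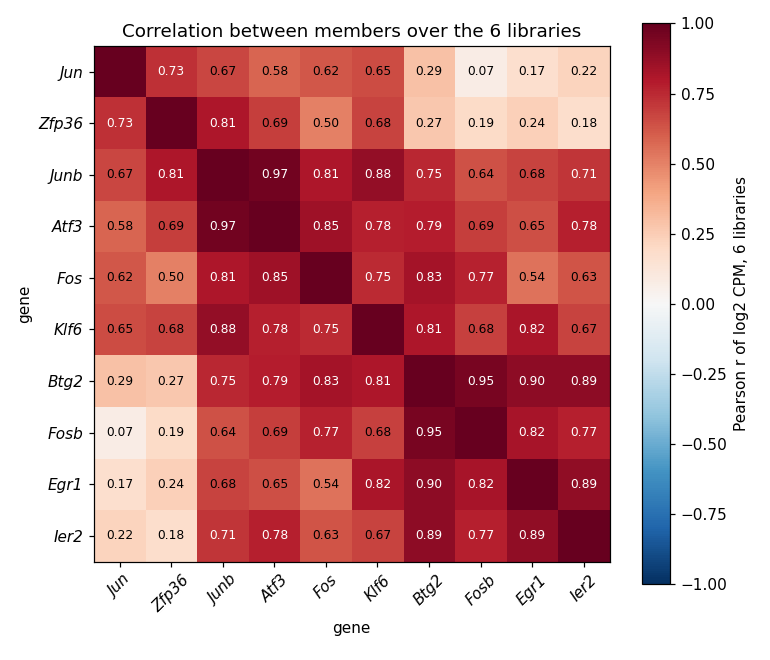
Pearson r of log2 CPM between each pair of members over the 6 libraries (3 DOX, 3 PBS), with the value in each cell and the order of genes set by hand after the values were seen. All 45 values are positive, and the lightest cells join Jun and Zfp36 with Btg2, Fosb, Egr1 and Ier2.

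Set against the other 9 members in the same library, Fos was lower in DOX than in PBS. Its log2 CPM minus the mean log2 CPM of the other 9 was -2.62, -2.61 and -2.40 in DOX replicates 1 to 3 and -1.88, -2.11 and -2.07 in PBS replicates 1 to 3. The groups did not overlap on this measure, and their means differed by -0.52 (DOX minus PBS). In 3 other members the groups did not overlap either, in the other direction, with differences of 0.32 each for Egr1, Ier2 and Klf6. Their own log2 fold changes were negative (-0.14, -0.16 and -0.16), with overlapping groups, so they were higher in DOX only relative to the other members. In the remaining 6 members the groups overlapped, with differences of -0.75 for Fosb and 0.42 for Zfp36 among them. Since each value is set against the others, some must be positive and some negative. The measure was taken only within the list, so no share of all genes stands beside these counts.

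Among 11945 other tested genes with a mean of at least 1 CPM, the 5 whose log2 CPM followed the members' average pattern most closely over the 6 libraries were Cd276, Zfp229, Slf1, Zmiz1 and Dclk1 (r = 0.98 to 0.99). They were chosen for this likeness, so no p is given. Cd276, an immune checkpoint molecule of the B7 family, averaged 6.79 CPM in DOX and 9.39 CPM in PBS. Zmiz1, a transcriptional coregulator, averaged 43.6 CPM in DOX and 53.6 CPM in PBS. The 3 most opposite genes were Hibadh, an enzyme of valine breakdown, Pdcd5, and Ndufs8, a subunit of respiratory complex I (r = -0.997, -0.995 and -0.995). Hibadh averaged 251.8 CPM in DOX and 220.7 CPM in PBS.

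The relatives and regulators of the members had 0 genes past the adjusted threshold in either direction in each of the lists named next (edgeR). DESeq2 called 2 of their 149 distinct tested genes, Gadd45g and Sgk1, a share near that of all genes, where it called 1.19% in either direction. Of 15 other AP-1 genes and partners, 10 had a negative log2 fold change, with a median of -0.12, against -0.015 for all tested genes. At an unadjusted p under 0.05, 0 of them were lower and 1 was higher, which was Atf5, a factor of the ATF4 branch, at 232.4 ± 25.0 CPM in DOX and 164.0 ± 44.5 CPM in PBS (adjusted p = 0.474). Fosl2, the Fos-related factor Fra-2, averaged 16.2 ± 2.65 CPM in DOX and 20.5 ± 2.78 CPM in PBS, with overlap (adjusted p = 0.5). Of the 5 tested genes of the EGR and NR4A families and their NAB cofactors, 3 were negative (median -0.13) and 0 were under an unadjusted p of 0.05. Of these, Nr4a1, an orphan nuclear receptor induced by the same stimuli, stood at 4.20 ± 1.83 CPM in DOX and 6.20 ± 1.98 CPM in PBS, with overlap (adjusted p = 0.605).

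Upstream, the kinases and factors that signal to these promoters were near the background, with 14 of 25 negative and a median of -0.04, and with 0 lower and 1 higher at an unadjusted p under 0.05. Map2k2, the kinase MEK2, averaged 120.1 ± 7.39 CPM in DOX and 95.8 ± 5.33 CPM in PBS, without overlap (adjusted p = 0.380). Met, the receptor of hepatocyte growth factor, averaged 60.1 ± 7.69 CPM in DOX and 50.9 ± 0.784 CPM in PBS, without overlap (adjusted p = 0.5). Creb1, the gene of CREB, averaged 15.5 ± 1.62 CPM in DOX and 18.3 ± 1.84 CPM in PBS, with overlap (adjusted p = 0.552). Of 15 genes of feedback on the MAP kinases, themselves often induced early, 14 were negative, with a median of -0.24. Unadjusted, 2 of these were under 0.05, both lower. Ier3, an early response gene that protects from cell death, stood at 9.29, 8.92 and 6.40 CPM in DOX, against 9.86, 17.1 and 11.3 CPM in PBS (log2 fold change -0.63, adjusted p = 0.457). Dusp8, a phosphatase of the stress kinases, stood at 5.605, 6.50 and 4.62 CPM in DOX, against 8.24, 9.08 and 6.50 CPM in PBS (adjusted p = 0.462). In both genes the groups did not overlap, for Dusp8 by a margin smaller than the last digit printed.

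Of 29 tested further early response genes, 23 were negative (median -0.17), and at an unadjusted p under 0.05, 6 were lower and 1 higher, against 4.87% lower and 5.03% higher of all tested genes. Gadd45g, a growth arrest gene, stood at 35.4, 34.0 and 35.3 CPM in DOX, against 46.9, 51.7 and 47.6 CPM in PBS (log2 fold change -0.48, SE 0.08, adjusted p = 0.118). Its groups were well apart, and DESeq2 called it (adjusted p = 0.00701). Sgk1, a kinase gene induced by glucocorticoids and serum, was higher in DOX, at 39.6, 32.1 and 37.5 CPM in DOX, against 26.8, 21.3 and 23.5 CPM in PBS (log2 fold change 0.61, SE 0.12, adjusted p = 0.203), and DESeq2 called it too (adjusted p = 0.00653). Plk2, a polo-like kinase gene, averaged 8.72 ± 2.53 CPM in DOX and 14.5 ± 1.64 CPM in PBS, without overlap (adjusted p = 0.375).

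Relatives of Zfp36 and Btg2 in mRNA decay and growth arrest had 8 of 13 negative (median -0.07), with 0 under an unadjusted p of 0.05. The KLF and IER relatives had 9 of 13 negative (median -0.07), with 1 lower at that p, which was Ier3. Of 13 heat shock genes, 10 were negative (median -0.19), with 3 lower and 1 higher at an unadjusted p under 0.05. Hspb8, a small heat shock protein, averaged 252.5 ± 38.4 CPM in DOX and 346.2 ± 10.7 CPM in PBS, without overlap (adjusted p = 0.375). Hspa1a, an inducible Hsp70 gene, averaged 1.36 ± 0.256 CPM in DOX and 2.46 ± 0.491 CPM in PBS (adjusted p = 0.416). Its level is uncertain, since it has a near-identical copy, Hspa1b. That copy averaged 11.7 ± 1.02 CPM in DOX and 13.2 ± 3.37 CPM in PBS, with overlap (log2 fold change -0.17, adjusted p = 0.791). Hspb1, the gene of Hsp25, was the 1 higher at that p, at 18.6 ± 2.21 CPM in DOX and 12.4 ± 4.52 CPM in PBS, with overlap (adjusted p = 0.480). Of 10 tested genes of the ATF4 stress response, 4 were negative (median 0.04), and 1 was lower and 1 higher at that p, both without overlap. The higher one was Fgf21, a hormone that liver secretes, at 2.29 ± 0.87 CPM in DOX and 0.909 ± 0.417 CPM in PBS (adjusted p = 0.423). The lower one was Ddit3, the gene of CHOP, at 4.84 ± 0.937 CPM in DOX and 9.17 ± 4.17 CPM in PBS (adjusted p = 0.423). Of 12 p53 targets, 7 were negative (median -0.11), and 3 were lower and 1 higher at that p. Aen averaged 16.5 ± 2.54 CPM in DOX and 23.0 ± 2.19 CPM in PBS (adjusted p = 0.369), and Ccng1, cyclin G1, 47.6 ± 5.84 CPM in DOX and 62.6 ± 7.79 CPM in PBS (adjusted p = 0.407). The higher one, Sesn1, a stress-induced inhibitor of mTORC1 signalling, averaged 21.8 ± 1.73 CPM in DOX and 15.4 ± 3.63 CPM in PBS (adjusted p = 0.423). In these 3 genes the groups did not overlap.

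Markers of liver cell types were set beside the members, since in bulk tissue fewer cells of a type and less RNA per cell cannot be told apart. Among all tested genes, 53% had a negative log2 fold change. At an unadjusted p under 0.05, 4.87% of them were lower and 5.03% higher in DOX (edgeR). DESeq2 called 1.19% of 14828 genes in either direction. Of 11 cholangiocyte markers, 11 had a negative log2 fold change (median -0.59), with 4 at an unadjusted p under 0.05 and 0 past the adjusted threshold (DESeq2 called 1, Tspan8). Their summed level was 272.7, 241.4 and 141.2 CPM in DOX replicates 1 to 3 and 311.9, 407.3 and 286.7 CPM in PBS replicates 1 to 3. Like the members, these markers were lowest in DOX replicate 3. The summed macrophage, stellate cell and lymphocyte markers given below were lowest in that library too. Those of neutrophils, hepatocytes, endothelial and erythroid cells were lowest in other libraries. Of 8 tested neutrophil markers, 8 were negative (median -0.38), 2 of them at an unadjusted p under 0.05, with sums of 14.7 to 22.2 CPM in DOX and 16.3 to 34.99 CPM in PBS. Of 10 tested hepatocyte markers, 3 were negative (median 0.33), with sums of 91687 to 151777 CPM in DOX and 72716 to 88333 CPM in PBS, so the defining genes of liver were abundant throughout. At an unadjusted p under 0.05, 3 of them were higher in DOX (Apoa2, Alb and Ttr), with 0 past the adjusted threshold, and DESeq2 called Alb higher in DOX (adjusted p = 0.0181). Alb, the gene of albumin, made up most of these sums, at 60634 to 113495 CPM in DOX and 45625 to 57734 CPM in PBS, without overlap.

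Macrophage markers summed to 1079 to 1407 CPM in DOX and 1213 to 1276 CPM in PBS (6 of 13 negative, median 0.0085). Endothelial markers summed to 187.8 to 327.2 CPM in DOX and 106.2 to 222.8 CPM in PBS (1 of 13 negative, median 0.76, with 2 higher at an unadjusted p under 0.05), and stellate cell markers to 252.7 to 529.9 CPM in DOX and 260.8 to 474.0 CPM in PBS (1 of 13 negative, median 0.19). Lymphocyte markers were scarce, at 2.78 to 6.85 CPM in DOX and 3.27 to 5.08 CPM in PBS (2 of 7 tested negative, median 0.23), and erythroid markers summed to 24.0 to 178.5 CPM in DOX and 54.6 to 91.4 CPM in PBS (0 of 5 tested negative, median 0.45). No marker in the table was at 0 in all libraries, and Ms4a1, a B cell marker, was at 0 in the 3 DOX libraries and had 0 to 1 counts in PBS libraries. The part of these cell types in the values of the members was not tested.

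**Figure D5:**
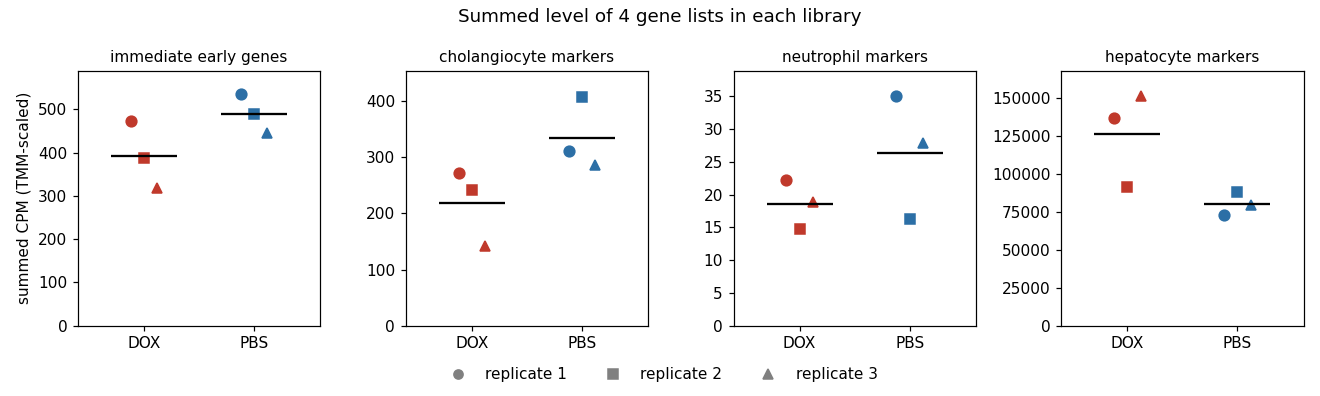
Summed CPM (TMM-scaled) of the 10 members and of the markers of cholangiocytes, neutrophils and hepatocytes in each library, DOX in red and PBS in blue, replicates by symbol, group mean as a line, every axis from 0. DOX replicate 3 is lowest for the members (318.5 CPM) and for cholangiocyte markers (141.2 CPM) and highest for hepatocyte markers (151777 CPM).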

How the data were processed

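Liver RNA of 6 mouse libraries was examined, 3 DOX and 3 PBS, grouped by their titles. Per the labels' protocols, RNA was column-purified and libraries came from a SMARTER mRNA kit. The submitters' processing notes name GRCm38 and mm10. No aligner, counter or strand setting is given in the sources used here. Raw counts per gene and FPKM values were deposited by the authors. In the 18913 genes with counts in at least 2 libraries, the deposited FPKM equal counts over a fixed length and the column total (relative tolerance 1e-05). Within groups, chi-square over genes was 44.8 to 141.9 per degree of freedom, above sampling noise, and each library counts as 1 sample. The floor of 3 counts was 0.0692 to 0.0908 CPM.

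The counts entered edgeR 4.0.16 in R 4.3.3 (filterByExpr, TMM, quasi-likelihood, no block), with Benjamini-Hochberg adjustment over all tested genes and a threshold of 0.05. Standard errors come from the F statistic. Correlations use log2 CPM (prior count 2) and exact two-sided permutation tests over the 720 orders of 6 libraries. The orders take no account of group, so their p-values include any difference between DOX and PBS. Gene coordinates are from GENCODE M21 (GRCm38). The fit was tested on simulated data with 100 genes changed 2-fold and 100 changed 4-fold. There, 68% of 2-fold and 90% of 4-fold changes passed the threshold. In the real data only 4 genes passed, and the adjusted threshold is stricter where fewer genes differ. The simulated shares may therefore be too high for these data. Smaller changes were not simulated. Alternatives were other scalings and filters, DESeq2 1.42.0, limma 3.58.1 (voom, and log2 of FPKM plus 1 or 0.1), the replicate number as a block, and leaving out each library.

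The members and lists were chosen with earlier results of these data known. Named are all members, Bche, up to 3 genes of smallest p from a list, taken in the order of p, and the 5 genes most like and 3 least like the members' mean pattern. Of the list entries, Egr4, Tf and Trac were not matched. Ms4a1, Prdx2, Junos and Hspa1b fall outside this rule, and Ms4a1 was chosen after its values were seen.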

Additional observations from a re-analysis of the deposited data

How the results depend on the processing

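Over 149 values of single members under the alternatives, 147 were negative like the values reported. The 2 that reversed were those of Egr1 without DOX replicate 3 (0.057) and without PBS replicate 2 (0.015), in a range of -0.35 to 0.057 when 1 library was left out. The number of members past the threshold was 0 in the edgeR fit and 1 with DESeq2, which was Fos (log2 fold change -0.92), and 0 under the other alternatives. For Fos the adjusted p ranged from 0.0044 to 0.587 over the alternatives. The median log2 fold change of the members was -0.50 with library size only, a scaling that moves the median of all tested genes to -0.15, and -0.51 to -0.22 when 1 library was left out. That of the other AP-1 genes was -0.18 to -0.02 when 1 library was left out. The median r of the members' pairs was 0.35 to 0.81 when 1 library was left out, and that of Fos with each other member was 0.57 to 0.81, in both cases lowest without DOX replicate 3. None of the 99 r values of Fos under these alternatives changed sign. Leaving out 2 libraries is not among the 99, and without DOX replicate 3 and PBS replicate 1 the r of Fos with Zfp36 was -0.55.

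Over all genes, DESeq2 called 176 (128 higher and 48 lower in DOX), no filter on low counts called 61 (45 and 16), limma-voom 2 (1 and 1), and library size only 2 lower. Leaving out 1 library gave 3 to 4 genes, with 3 to 4 higher, and 0 to 1 lower in DOX. Their cause was not tested.

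With the replicate block, 21 genes were called, 17 higher and 4 lower, and none of the members (Fos adjusted p = 0.0926, log2 fold change -0.93). Deviations from the group means correlated at 0.19, 0.13 and 0.0097 between same-numbered libraries, and the other 6 combinations -0.18 to 0.057. DOX replicate 3 and PBS replicate 3 each correlated best with another number. The labels give the numbers no meaning, so they were not taken as pairs. Fosb rests on 9 to 78 counts a library, which limits its precision, and it falls below the filter of 1 CPM in 3 libraries.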
